A study of Rattus norvegicus with 56 samples.

Results

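Gene expression was measured in the dorsal striatum of 14 lesioned rats, 7 given both L-dopa and pramipexole and 7 given neither drug, out of the 56 rats of the series. The 14 were taken by their labels: lesioned rats with L-dopa treatment and pramipexole conditioning (numbers 1 to 7) against lesioned rats with saline in both places (numbers 22 to 28), with 1 Rat230_2 array per rat. The comparison was chosen with earlier results of these data known. Of the 31042 probe sets that are not controls, the 18462 with a mean log2 signal above 5 over these 14 arrays were tested. All rats were male Crl:OFA (Sprague Dawley) rats, and their age is not given in the sources used here. In every lesioned rat an AAV vector had been used to destroy nigral neurons on both sides, so both groups share the lesion. Rats given both drugs received L-dopa methyl ester (50 mg/kg a day, under the skin, with benserazide) for 3 weeks from 5 weeks after the lesion, and then 4 injections of pramipexole (2 mg/kg) in place conditioning sessions of 40 min that alternated with vehicle sessions. Rats given neither drug received saline at each of these steps and went through the same conditioning. Rats given L-dopa alone (7, lesioned) and pramipexole alone (7, lesioned) are used here only for the steps between the 2 groups, and sham rats, which received the same vector with GFP, only for levels. The tissue was taken after a drug-free test of 20 min, 24 or 48 h after the last conditioning dose. Measures of the dopamine loss in single rats were not used here.

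The dorsal striatum is built mainly of medium spiny neurons, which receive dopamine from the substantia nigra. Those of the direct pathway carry the D1 receptor and make dynorphin and substance P, and those of the indirect pathway carry the D2 receptor and an adenosine receptor and make enkephalin. L-dopa is the precursor of dopamine, benserazide blocks its conversion outside the brain, and pramipexole is an agonist of the D2 and D3 receptors. After loss of dopamine, repeated stimulation of D1 receptors is known to raise Fos family genes and Pdyn in the striatum.

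The striatal neuron genes Penk, Ppp1r1b, Drd1, Drd2, Adora2a and Tac1 had log2 signals of at least 8.99 in all 14 rats, as the tissue label has it. Several arrays stand apart. In rat 2, given both drugs, 338 probe sets were more than 1 log2 unit above the median of the other 6 rats of its group, against 8 to 25 in those 6 rats and 14 to 124 in the 7 rats given neither. The 124 belong to rat 22, given neither drug, in which markers of striatal neurons were low and markers of cerebral cortex high. Rat 3, given both drugs, had the opposite pattern, and so had rats 23, 27 and 28, given neither. A score is the mean log2 signal of a list's genes, each centred on its mean over all arrays of the series. Shared striatal neuron genes scored 0.35 in rat 3, and 0.17, 0.23 and 0.23 in rats 23, 27 and 28. Cerebral cortex genes scored -0.49 in rat 3, and -0.39, -0.53 and -0.72 in rats 23, 27 and 28. The count of calls in each comparison is therefore given with and without rat 2, and single values without it where it changes them. RNA quality also differed between the groups: the mean of the 3' minus the 5' log2 signal over 3 rat control genes was 0.88 ± 0.07 in rats given both drugs and 0.81 ± 0.04 in rats given neither (SD, n = 7 each). The difference of 0.0759 had a two-sided exact permutation p of 0.0321. For beta-actin and GAPDH alone the values were 1.06 ± 0.08 in rats given both drugs and 0.87 ± 0.10 in rats given neither, with a difference of 0.191 and an exact permutation p of 0.00233. This pair was taken after seeing the data, so its p is not a separate test of RNA quality. The remaining control gene, hexokinase, went the other way.

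At a Benjamini-Hochberg adjusted p under 0.05 in limma, 3 probe sets differed between rats given both drugs and rats given neither (0.0162% of those tested), 2 higher (0.0108%) and 1 lower (0.00542%). They were Setd5, higher, Brd1, lower, and 1371366_at, higher, a probe set with no gene symbol in the platform annotation. Without rat 2, 0 probe sets passed (0%), and the lowest adjusted p was 0.0824. None passed either when rat 1, 3, 25, 26, 27 or 28 was left out, and 6 passed without rat 7 or rat 22. With the 3' minus 5' signal as a covariate 0 passed, and the adjusted p-values of Setd5 and Brd1 were then both 0.0688. At an unadjusted p under 0.05 there were 2296 probe sets (12.4%), 1321 higher (7.16%) and 975 lower (5.28%), and 1804 (9.77%) without rat 2. Differences were small: the median over all 18462 probe sets was 0.01 log2 units and the median size 0.08, beside a median SE of 0.09. A difference of more than 0.5 log2 units was found for 113 probe sets, 88 higher and 25 lower in rats given both drugs, and none of these 113 was called. Without rat 2 the number was 71, of which 46 were higher and 25 lower.

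**Figure D1:**
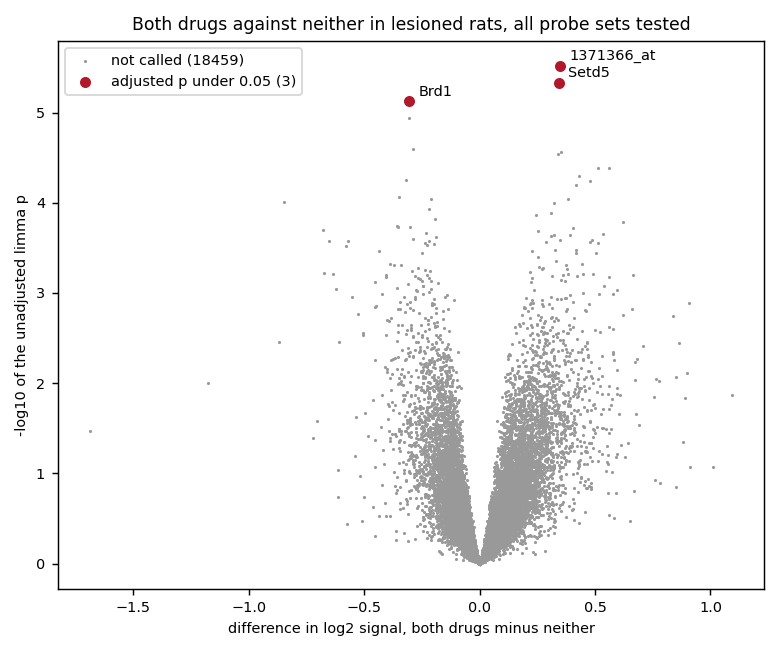
Difference in log2 signal (both drugs minus neither, 7 lesioned rats each) against the -log10 of the unadjusted limma p, with 1 point per probe set for the 18462 tested. The 3 called probe sets, in red, have differences of 0.35, 0.34 and -0.30 log2 units, and the points with larger differences lie below them.

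Setd5, a chromatin protein with a SET domain, had log2 signals from 7.98 to 8.17, median 8.05, in rats given both drugs, against 7.58 to 7.89, median 7.75, in rats given neither. The groups do not overlap, and rat 2 was the lowest of its group. The difference was 0.34 ± 0.07 log2 units (SE, limma adjusted p = 0.043), or 1.27-fold, and 7 of 7 rats given both drugs lay above the mean of rats given neither. Without rat 2 it was 0.36 ± 0.07 with an adjusted p of 0.0824. The other 2 probe sets of Setd5 had differences of 0.14 ± 0.08 and 0.17 ± 0.11, which did not pass.

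The probe set 1371366_at, named after its value was seen, had log2 signals from 8.34 to 8.84, median 8.50, in rats given both drugs, against 8.08 to 8.27, median 8.23, in rats given neither. Its groups do not overlap either, and rats 1 and 2 held the highest signals. The difference was 0.35 ± 0.07 (adjusted p = 0.043), and 0.32 ± 0.07 without rat 2 (adjusted p = 0.143).

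Brd1, a bromodomain protein that serves as a scaffold of histone acetyltransferase complexes, had log2 signals from 7.01 to 7.43, median 7.13, in rats given both drugs, against 7.39 to 7.55, median 7.49, in rats given neither. Rat 6 lay within the range of rats given neither, and the other 6 rats given both drugs lay below it. The difference was -0.30 ± 0.06 (adjusted p = 0.0459), or 0.81 times the level of rats given neither, and -0.28 ± 0.06 without rat 2 (adjusted p = 0.143). The other 2 probe sets of Brd1 were too dim to be tested and lay on the other side of 0, at 0.76 ± 0.29 (mean log2 signals 4.23 in rats given both drugs and 3.47 in rats given neither) and 0.05 ± 0.27.
The promoter of Brd1 is shown as the 1 sequence at hand for the called genes. It is the stretch of 250 bases before the gene's start in RefSeq (build GRCr8, chr7:121701701-121701950, minus strand), with the matches of the searched motifs in capitals.
Brd1: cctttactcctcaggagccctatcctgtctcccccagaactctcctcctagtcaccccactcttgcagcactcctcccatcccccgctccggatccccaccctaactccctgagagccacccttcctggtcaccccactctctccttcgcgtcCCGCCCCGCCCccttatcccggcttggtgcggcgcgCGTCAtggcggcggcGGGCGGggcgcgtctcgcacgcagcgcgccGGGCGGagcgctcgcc
Searched on both strands, it holds 4 GC boxes (GGGCGG, overlapping matches counted), 1 core of the cAMP response element, or CRE (TGACG), and 0 full CRE (TGACGTCA), AP-1 (TGANTCA) or CCAAT motifs, and 70.4% of its bases are G or C. Among 27457 rat promoters of this length, 32.4% hold a GC box, 19.0% a CRE core, 1.7% a full CRE, 6.36% an AP-1 motif and 34.3% a CCAAT box.

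**Figure D2:**
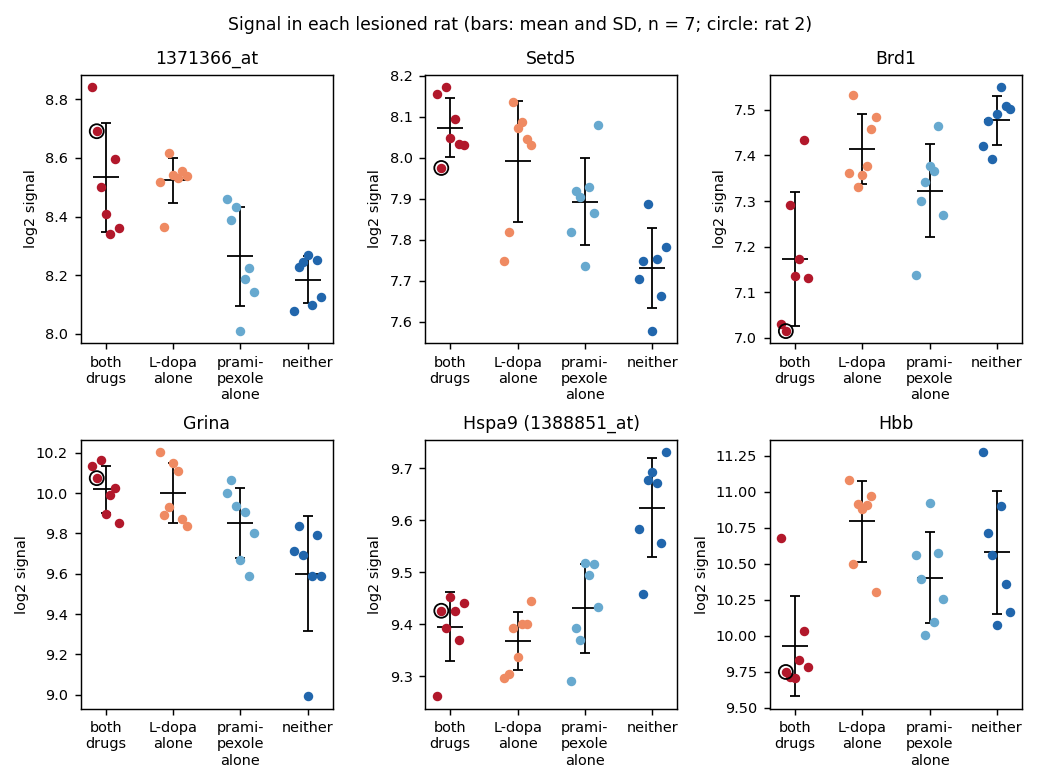
Log2 signal of 6 probe sets in each of the 28 lesioned rats, by drug group, with the group mean and SD (n = 7) as bars and a circle around rat 2. For Setd5, 1371366_at, Grina and the Hspa9 probe set 1388851_at every rat given both drugs lies on 1 side of every rat given neither, while 1 rat overlaps for Brd1 and for Hbb.

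The genes next in order of p were not called, and their values describe what lies just outside the threshold. The higher ones had adjusted p-values from 0.0767 to 0.114 and include several signalling proteins. Csnk1g2, a kinase of the casein kinase 1 family, had log2 signals of 7.82 to 8.26, median 7.99, in rats given both drugs, against 7.57 to 7.77, median 7.70, in rats given neither, with no overlap and a difference of 0.35 ± 0.08. Mapkapk2, the kinase that acts after p38 MAP kinase, had 6.94 to 7.58, median 7.26, in rats given both drugs, against 6.49 to 6.85, median 6.75, in rats given neither. Its groups do not overlap, and its difference of 0.56 ± 0.13 was the widest of the 20 genes named in this order. Ikbkb, the kinase that releases NF-kappaB from its inhibitor, had 5.74 to 6.38, median 6.07, in rats given both drugs, against 5.15 to 5.98, median 5.62, in rats given neither. The groups overlap, and the difference was 0.48 ± 0.11.

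Grina, a membrane protein first described with the NMDA receptor, had 9.85 to 10.16, median 10.03, in rats given both drugs, against 8.99 to 9.84, median 9.69, in rats given neither. The low end is rat 25, far below the other 6 rats given neither, whose signals lay from 9.59 to 9.84. The difference was 0.42 ± 0.10, and the groups do not overlap. Asxl1, a chromatin protein of the Polycomb group, had a difference of 0.43 ± 0.10, but its other 2 tested probe sets had 0.07 ± 0.08 and -0.03 ± 0.07. Gga3, an adaptor that sorts proteins between Golgi and endosomes, had 0.34 ± 0.07, and its other probe set had -0.03 ± 0.08. Pitpnm1, a phosphatidylinositol transfer protein, had 0.31 ± 0.07 and Rex1bd 0.32 ± 0.08. C1h19orf12, whose human counterpart is mutated in a form of brain iron accumulation, had 0.38 ± 0.09, and 0.29 ± 0.08 without rat 2, in which it was far above the rest of its group.

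Among the lower genes was Hspa9, the Hsp70 chaperone of mitochondria, with 3 tested probe sets. At 1370690_at it had log2 signals of 7.92 to 8.46, median 8.26, in rats given both drugs, against 8.31 to 8.95, median 8.59, in rats given neither, with a difference of -0.35 ± 0.09 (adjusted p = 0.114). At 1388851_at it had 9.26 to 9.45, median 9.42, in rats given both drugs, against 9.46 to 9.73, median 9.67, in rats given neither, with no overlap and a difference of -0.23 ± 0.06 (adjusted p = 0.114). A dimmer probe set of the gene, 1391915_at, lay on the other side at 0.85 ± 0.32 (adjusted p = 0.274). Phf6, a PHD finger chromatin protein, had 8.09 to 8.39, median 8.30, in rats given both drugs, against 8.39 to 8.56, median 8.50, in rats given neither. The groups touch without overlap, with a difference of -0.21 ± 0.05.

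Osgepl1, an enzyme of mitochondrial tRNA modification, had 6.21 to 6.54, median 6.49, in rats given both drugs, against 6.56 to 6.92, median 6.73, in rats given neither, a difference of -0.30 ± 0.07. Sdhaf3, an assembly factor of succinate dehydrogenase, had 7.25 to 7.61, median 7.55, in rats given both drugs, against 7.61 to 7.83, median 7.75, in rats given neither, a difference of -0.23 ± 0.06. Neither gene's groups overlap. The other lower genes overlapped between groups: Cops2, a subunit of the COP9 signalosome, with -0.29 ± 0.06, Slc35a1, the Golgi carrier of CMP-sialic acid, with -0.32 ± 0.07, Far1, an enzyme of ether lipid synthesis, with -0.35 ± 0.08, Rabep1, an effector of Rab5 on endosomes, with -0.19 ± 0.05, and Vma21, an assembly factor of the vacuolar proton pump, with -0.36 ± 0.09. The other tested probe sets of Cops2, Slc35a1, Phf6 and Vma21 were all lower too, by 0.09 to 0.22 log2 units, and none passed. Those of Rabep1 lay on both sides, at -0.13 ± 0.04 and 0.03 ± 0.10.

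RNA quality differed between the groups, as given above. With the 3' minus 5' signal of beta-actin and GAPDH as a covariate, 8 of the 20 genes moved by more than 1.5 times, all to smaller differences: Grina to 0.22 (adjusted p = 0.663), Csnk1g2 to 0.21, Cops2 to -0.19, Slc35a1 to -0.17, Phf6 to -0.13, Vma21 to -0.20, Hspa9 at 1370690_at to -0.19 and Sdhaf3 to -0.15. Setd5 and Brd1 moved less, to 0.33 (adjusted p = 0.14) and -0.27 (adjusted p = 0.209). This covariate was added after seeing the data and nearly separates the groups. It ran from 0.96 to 1.19 in rats given both drugs and from 0.68 to 0.98 in rats given neither. Adjusting for it can also take out part of a drug difference. Drug and RNA quality thus cannot be told apart with it, here or where it is used below.

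**Figure D3:**
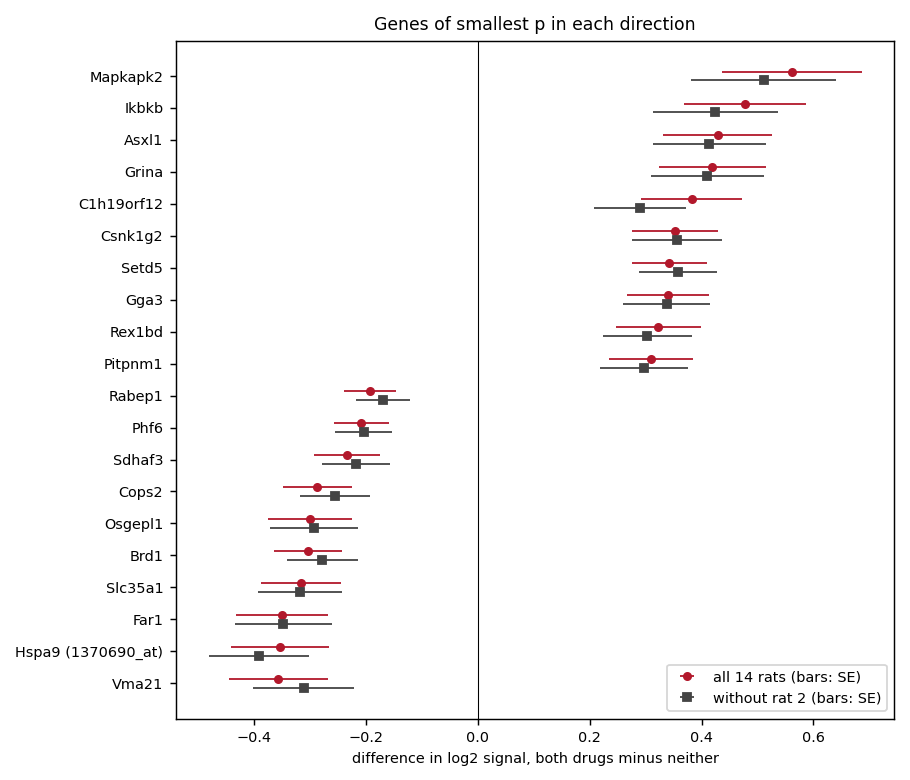
Difference in log2 signal (both drugs minus neither, lesioned rats) of the 20 genes named by p, 10 in each direction, with all 14 rats (red circles) and without rat 2 (grey squares); bars are SE. Differences run from -0.36 for Vma21 to 0.56 for Mapkapk2, and every gene keeps its side without rat 2.

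The 2 groups of rats did not overlap at 45 probe sets (0.244% of those tested), 25 higher (0.135%) and 20 lower (0.108%) in rats given both drugs, and at 62 (0.336%) without rat 2. Adjusted p-values of the 45 ran from 0.043 to 0.523. The widest differences, named after the values were seen, were those of Adcy9, an adenylyl cyclase, at 0.59 ± 0.17, Mapkapk2, given above, and Ocln, the tight junction protein occludin, at 0.49 ± 0.13, among the higher, and of Kitlg, the ligand of the Kit receptor, at -0.45 ± 0.16, among the lower. The higher ones also hold Ncor1, a nuclear corepressor, at 0.33 ± 0.09 and Adnp, a chromatin factor of neurons, at 0.25 ± 0.08.

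A difference of more than 1 log2 unit was found at 4 probe sets, none called, and in each the rats of a group were far apart. Eeig2 had log2 signals of 3.40 to 7.55, median 3.93, in rats given both drugs, against 2.94 to 7.87, median 7.42, in rats given neither. Its difference of -1.69 ± 0.78 thus lies within a spread that covers the whole range in both groups. Cmbl had 2.89 to 6.26, median 5.26, in rats given both drugs, against 5.03 to 6.52, median 6.04, in rats given neither, a difference of -1.17 ± 0.44. The other 2 carry no symbol or several: 1384717_at had 1.01 ± 0.57, and 1370892_at had 1.09 ± 0.43 with rat 2 and 0.32 ± 0.21 without it, since rat 2 reached 10.92 where rats given neither reached 5.58. Without rat 2, 6 probe sets passed 1 log2 unit, among them 2 of Mfhas1 at 1.01 ± 0.29 and 1.06 ± 0.27 (0.86 ± 0.28 and 0.91 ± 0.27 with rat 2), none called.

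The 2 single-drug groups show how the 3 called probe sets lay between the ends. The 3' minus 5' signal of beta-actin and GAPDH was 1.11 ± 0.09 in rats given L-dopa alone and 0.96 ± 0.08 in rats given pramipexole alone (SD, n = 7 each). It was 0.87 ± 0.10 in rats given neither, so the steps also hold a difference in RNA quality. The steps share groups with the comparison and with each other, so their values are given side by side and nothing is read from their likeness. In the step from neither drug to L-dopa alone 3 probe sets passed (0.0162%, and 12.8% at an unadjusted p under 0.05), and in the step to pramipexole alone 0 passed (0%, and 7.08% unadjusted). Neither step holds rat 2, but leaving it out changes the pooled spread: 3 probe sets then passed for L-dopa alone (0.0162%) and 1 for pramipexole alone (0.00542%). That 1 was a probe set of Mfhas1, with 1.38 ± 0.26 for pramipexole alone minus neither and an adjusted p of 0.0465 without rat 2, against 0.0744 with it. 1371366_at was one of the 3, with 0.34 ± 0.07 for L-dopa alone minus neither (adjusted p = 0.032) and 0.01 ± 0.07 for both drugs minus L-dopa alone, while pramipexole alone minus neither gave 0.08 ± 0.07. Setd5 had 0.26 ± 0.07 for L-dopa alone minus neither (adjusted p = 0.122) and 0.16 ± 0.07 for pramipexole alone minus neither (adjusted p = 0.641). Brd1 had -0.06 ± 0.06 for L-dopa alone minus neither, -0.155 ± 0.06 for pramipexole alone minus neither and -0.24 ± 0.06 for both drugs minus L-dopa alone (adjusted p = 0.304). The other 2 called for L-dopa alone were 1374870_at, at 0.80 ± 0.15, and Peli2, at -0.46 ± 0.09. For both drugs minus neither these had 0.46 ± 0.15 (adjusted p = 0.242) and -0.18 ± 0.09 (adjusted p = 0.398). A brighter tested probe set of Peli2 had -0.07 ± 0.07 (adjusted p = 0.72) for both drugs minus neither.

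Both drugs were set against L-dopa alone and against pramipexole alone as well. Against L-dopa alone 3 probe sets passed, all lower (0.0162%, and 5.96% at an unadjusted p under 0.05), and against pramipexole alone 0 passed (0%, and 5.13% unadjusted). One of the 3 was Hbb, beta-globin, which averaged 9.93 ± 0.35 in rats given both drugs, against 10.79 ± 0.28 in rats given L-dopa alone (SD, n = 7 each), a difference of -0.87 ± 0.17 (limma adjusted p = 0.0346). The other 2, 1371245_a_at at -1.04 ± 0.20 and 1370239_at at -0.75 ± 0.15, carry several symbols and are not named. Without rat 2, 0 probe sets passed against L-dopa alone, where the 3 had adjusted p-values of 0.132, 0.132 and 0.148, and 0 against pramipexole alone.

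Whether the effect of both drugs differed from the sum of the single ones was tested in the same fit. The departure from additivity passed at 0 probe sets (0%), with 1291 (6.99%) at an unadjusted p under 0.05 and a lowest adjusted p of 0.328, and at 0 without rat 2. The median SE of this contrast was 0.13, against 0.09 for a difference of 2 groups. The 3 genes of smallest p were Peli2, an E3 ligase of Toll-like receptor signalling, with 0.54 ± 0.12, Lnc215 with -0.45 ± 0.11 and Rnd3, a small GTP-binding protein, with -0.53 ± 0.13. In Rnd3, each drug alone gave a positive difference from neither (0.28 ± 0.09 for L-dopa, 0.32 ± 0.09 for pramipexole) and both drugs gave 0.07 ± 0.09. In Peli2, at the dimmer of its tested probe sets, L-dopa alone gave -0.46 ± 0.09, pramipexole alone -0.26 ± 0.09 and both drugs -0.18 ± 0.09.

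The dopamine system genes were examined next, since both drugs act there. Drd1, the D1 receptor, had log2 signals of 10.53 to 11.15, median 10.79, in rats given both drugs, against 10.25 to 11.10, median 10.98, in rats given neither, a difference of -0.10 (95% interval -0.32 to 0.12). Drd2, the D2 receptor, had 9.63 to 10.22, median 9.76, in rats given both drugs, against 8.99 to 10.09, median 9.67, in rats given neither, a difference of 0.08 (95% interval -0.17 to 0.33). The groups overlap for both receptors. The other tested probe set of Drd1, with mean log2 signals of 9.14 in rats given both drugs and 9.44 in rats given neither, had a wider difference of -0.30 ± 0.15 (adjusted p = 0.402), so the interval above holds for the brighter probe set alone. Drd3, the other receptor bound by pramipexole, was too dim to be tested, with 2.14 to 3.91, median 3.53, in rats given both drugs and 3.13 to 3.98, median 3.93, in rats given neither.

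Of the peptide genes, Penk, the enkephalin precursor, differed by 0.02 (95% interval -0.12 to 0.16). Pdyn, the dynorphin precursor, had 9.54 to 10.15, median 9.74, in rats given both drugs, against 9.47 to 10.43, median 10.07, in rats given neither, a difference of -0.19 (95% interval -0.46 to 0.08). Its other tested probe set had -0.42 ± 0.22 (adjusted p = 0.412). Tac1, the substance P precursor, had 9.80 to 10.61, median 10.25, in rats given both drugs, against 9.82 to 10.98, median 10.67, in rats given neither. Its difference of -0.34 ± 0.16 had an unadjusted p of 0.0368 and an adjusted p of 0.368, and 6 of 7 rats given both drugs lay below the mean of rats given neither. Without rat 2 it was -0.31 with an unadjusted p of 0.0674, and with the 3' minus 5' signal of beta-actin and GAPDH as a covariate it was -0.03 (adjusted p = 0.987). Fosb, whose stable splice product marks repeated dopamine stimulation, differed by -0.10 ± 0.15. Its mean log2 signals, 5.00 in rats given both drugs and 5.10 in rats given neither, lay at the limit of the filter, so a change could be missed. Adora2a, an adenosine receptor of the indirect pathway, differed by -0.09 ± 0.12 (-0.20 ± 0.16 at its other probe set), and Ppp1r1b, the phosphatase inhibitor DARPP-32, by -0.01 ± 0.10. Th, the rate-limiting enzyme of dopamine synthesis, was too dim to be tested, with a median of 3.67 in rats given both drugs and 4.21 in rats given neither.

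The genes around these were taken as 32 lists of pathway and cell type genes with 566 entries, of which 422 were tested, each gene by its brightest probe set. None of the 32 lists had a called member. Beside each list's counts stand those of all probe sets tested, of which 55.0% were higher in rats given both drugs, with a median difference of 0.01. In such tissue of mixed cells, fewer cells of a type and less RNA per cell cannot be told apart. Of D1 medium spiny neuron genes, 3 of 9 were higher, with a median of -0.04, and of D2 medium spiny neuron genes 2 of 4, with a median of -0.04. Shared striatal neuron genes had 9 of 19 higher and a median of -0.01, and here Rgs14 had the smallest p, with 0.32 ± 0.14 (adjusted p = 0.343). Dopamine receptors and their signalling proteins had 12 of 23 higher and a median of 0.00. With the 3' minus 5' signal of beta-actin and GAPDH as a covariate, the medians of the D1, D2 and shared striatal lists turned to 0.01, 0.09 and 0.02. In the list of dopamine receptors and their signalling proteins Akt1, a kinase downstream of D2 receptors, had 0.14 ± 0.05 (adjusted p = 0.281) and Ppp2ca, a phosphatase that acts on it, had -0.14 ± 0.05 (adjusted p = 0.284).

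Immediate early genes, which neurons switch on soon after activity, were higher for 13 of 16, with a median difference of 0.18 (0.14 without rat 2). At an unadjusted p under 0.05, 0 passed, against 12.4% of all probe sets. Fos, the best known of them, had log2 signals of 7.03 to 8.47, median 7.95, in rats given both drugs, against 6.64 to 7.86, median 7.47, in rats given neither, a difference of 0.57 ± 0.34. Nr4a1, an orphan nuclear receptor of the same response, had 7.12 to 7.64, median 7.26, in rats given both drugs, against 6.41 to 7.40, median 6.88, in rats given neither, a difference of 0.36 ± 0.20. Both genes varied widely within a group. The median of the list was 0.13 for L-dopa alone minus neither and 0.20 for pramipexole alone minus neither, and 0.05 for both drugs minus neither with the 3' minus 5' signal of beta-actin and GAPDH as a covariate.

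Heat shock genes lay on the other side: 1 of 15 was higher (Hsf1, at 0.01 ± 0.08), with a median of -0.10, and 4 were lower at an unadjusted p under 0.05, which is 26.7% of the list against 5.28% lower among all probe sets. These 4 were Hspa9, given above, Dnaja1, a partner of Hsp70, at -0.19 ± 0.06 (adjusted p = 0.183), Hspa4, an Hsp110 exchange factor, at -0.17 ± 0.07 (adjusted p = 0.33), and Hspd1, the mitochondrial chaperonin, at -0.09 ± 0.04 (adjusted p = 0.362). Dnaja1 had log2 signals of 10.14 to 10.47, median 10.30, in rats given both drugs, against 10.43 to 10.59, median 10.54, in rats given neither, and only the upper end of the first range reaches into the second. The median of the list was -0.10 without rat 2, with 0 of 15 higher, and -0.08 under quantile normalization. With the 3' minus 5' signal of beta-actin and GAPDH as a covariate it was -0.08.

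Among genes of the endoplasmic reticulum chaperone list, 8 of 19 were higher, with a median of -0.04. The list's main chaperone, Hspa5 (BiP), had a difference of -0.24 ± 0.11 (adjusted p = 0.342), and Herpud1, a factor of protein disposal there, had 0.20 ± 0.09 (adjusted p = 0.354), with rat 4 far above the other 6 of its group. Of 40 oxidative phosphorylation genes tested, 11 were higher, with a median of -0.03, and with the beta-actin and GAPDH covariate the median was 0.02. The smallest p-values were those of Ndufs1 and Ndufs8, subunits of complex I, with -0.11 ± 0.05 each (adjusted p = 0.323 and 0.377).

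Synaptic lists had medians within 0.04 log2 units of 0. Glutamate receptors had 13 of 17 higher and a median of 0.03, with 0 at an unadjusted p under 0.05, against 12.4% of all probe sets. Postsynaptic density genes had 10 of 17 higher and a median of 0.02, and 2 scaffold proteins of the same family lay on opposite sides: Dlg4 (PSD-95) had 0.21 ± 0.08 (adjusted p = 0.278) and Dlg2 (PSD-93) had -0.36 ± 0.12 (adjusted p = 0.229). GABA signalling genes had 4 of 14 higher and a median of -0.04 (0.01 with that covariate), with Gabrg1, a GABA-A receptor subunit, at -0.40 ± 0.12 (adjusted p = 0.196) and Abat, which breaks GABA down, at -0.24 ± 0.11 (adjusted p = 0.37). Potassium channels had 13 of 21 higher and a median of 0.01, or -0.003 under quantile normalization. Kcnk2, a background channel, had -0.25 ± 0.09 (adjusted p = 0.268) and Kcnd3 -0.18 ± 0.10 (adjusted p = 0.437).

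The remaining pathway lists held no called gene either. Genes of Ras-ERK signalling linked to L-dopa-induced dyskinesia had 6 of 11 higher and a median of 0.02, with Map2k2 (MEK2) at 0.17 ± 0.07 (adjusted p = 0.306) and Elk1, a transcription factor that ERK phosphorylates, at 0.18 ± 0.08 (adjusted p = 0.328). At an unadjusted p under 0.05, 4 members passed (36.4%, against 12.4% of all probe sets). Of these, 2 were lower, Map2k1 (MEK1) at -0.13 ± 0.06 and Rasgrp1, an activator of Ras, at -0.25 ± 0.12. Without rat 2 neither of these 2 was under that limit. Clock genes had 12 of 20 higher and a median of 0.02, with both partners of the activating complex lower in value, Bmal1 at -0.22 ± 0.08 (adjusted p = 0.298) and Clock at -0.12 ± 0.05 (adjusted p = 0.306). Glucocorticoid-responsive genes had 10 of 15 higher and a median of 0.06, while the receptor itself, Nr3c1, had -0.19 ± 0.08 (adjusted p = 0.326) and Errfi1 -0.21 ± 0.10 (adjusted p = 0.362). Cholesterol synthesis genes had 4 of 15 higher and a median of -0.03, with 2 enzymes on opposite sides, Mvd at 0.35 ± 0.09 (adjusted p = 0.114) and Sqle at -0.20 ± 0.10 (adjusted p = 0.4). Neuropeptides and opioid receptors had 6 of 13 higher and a median of -0.02, with Nts, neurotensin, at -0.32 ± 0.20. Neurotrophins and their receptors had 5 of 7 higher and a median of 0.04, with Gfra1, a GDNF receptor, at 0.21 ± 0.09 (adjusted p = 0.329). Dopamine neuron terminal genes had 2 of 5 higher and a median of -0.09. Besides the immune lists described next, leaving out rat 2 moved the medians of several lists, among them those of dopamine neuron terminals to -0.01, choroid plexus to 0.38, ependyma to 0.20, endoplasmic reticulum chaperones to -0.07, D1 medium spiny neurons to -0.07, neurotrophins to 0.07, glutamate receptors to 0.05, clock genes and endothelial cells to 0.04 each, and oligodendrocytes to -0.03. The medians of D2 medium spiny neurons, shared striatal neuron genes and GABA signalling became -0.02 each, that of neuropeptides became -0.01. Leaving out rat 2 also turned the medians of leptomeninges and astrocytes to 0.02 and 0.01 and those of dopamine signalling and Ras-ERK genes to -0.01 and -0.0004.

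**Figure D4:**
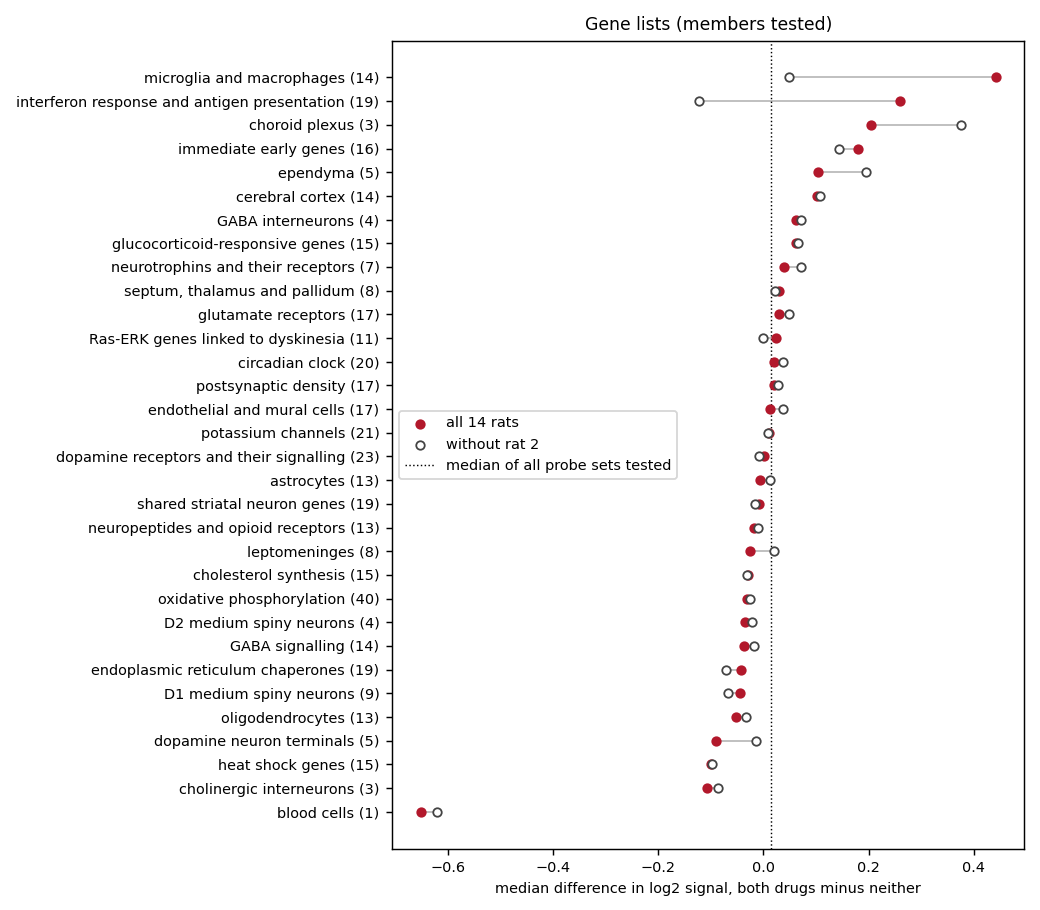
Median difference in log2 signal (both drugs minus neither) over the tested members of each of 32 gene lists, with all 14 rats (filled) and without rat 2 (open); the number of members is in brackets and the dotted line is the median of all probe sets, 0.01. The microglia and interferon lists move by the largest amount when rat 2 is left out, to 0.05 and -0.12.

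Immune genes set rat 2 apart from the other 13 rats. Of 19 interferon response and antigen presentation genes tested, 18 were higher in rat 2 than in any of the other 13 rats, and of 14 microglia and macrophage genes 13 were. In rat 2 the members lay above the median of the other 6 rats given both drugs by a median of 2.38 log2 units for the first list and 2.63 for the second. Cd74, the invariant chain of MHC class II, had 12.73 in rat 2, 5.20 to 6.71 in the other 6 rats given both drugs and 5.77 to 7.27 in rats given neither. RT1-Ba, a rat MHC class II chain, had 11.96 in rat 2, 2.55 to 5.48 in the other 6 and 3.48 to 6.07 in rats given neither. C1qa, a complement gene of microglia, had 12.20 in rat 2, 8.49 to 9.18 in the other 6 and 8.55 to 8.84 in rats given neither. Mx1, an antiviral GTPase induced by interferon, had 8.87 in rat 2, 4.52 to 4.92 in the other 6 and 4.55 to 5.28 in rats given neither. The exceptions were Ifi27, with 10.19 in rat 2 and up to 10.24 in rats given neither, and Mrc1, a macrophage receptor, with 5.18 in rat 2 and up to 5.53 in rats given neither.

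With rat 2, the microglia list had 13 of 14 members higher in rats given both drugs and a median difference of 0.44. At an unadjusted p under 0.05, 6 members (42.9%) were higher, against 7.16% higher among all probe sets. Without it, 10 of 14 were higher, with a median of 0.05 and 0 at that p. In the interferon list 13 of 19 were higher with rat 2, with a median of 0.26, and 4 of 19 without it, with a median of -0.12. Aif1, a cytoplasmic protein of microglia, had 0.61 ± 0.24 with rat 2 and 0.16 ± 0.11 without, and Psmb9, an immunoproteasome subunit, had 0.44 ± 0.24 with it and -0.001 ± 0.11 without. The summed linear signal of the microglia list was 22998 in rat 2, 3767 to 4570 in the other 6 rats given both drugs and 3555 to 4382 in rats given neither.

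**Figure D5:**
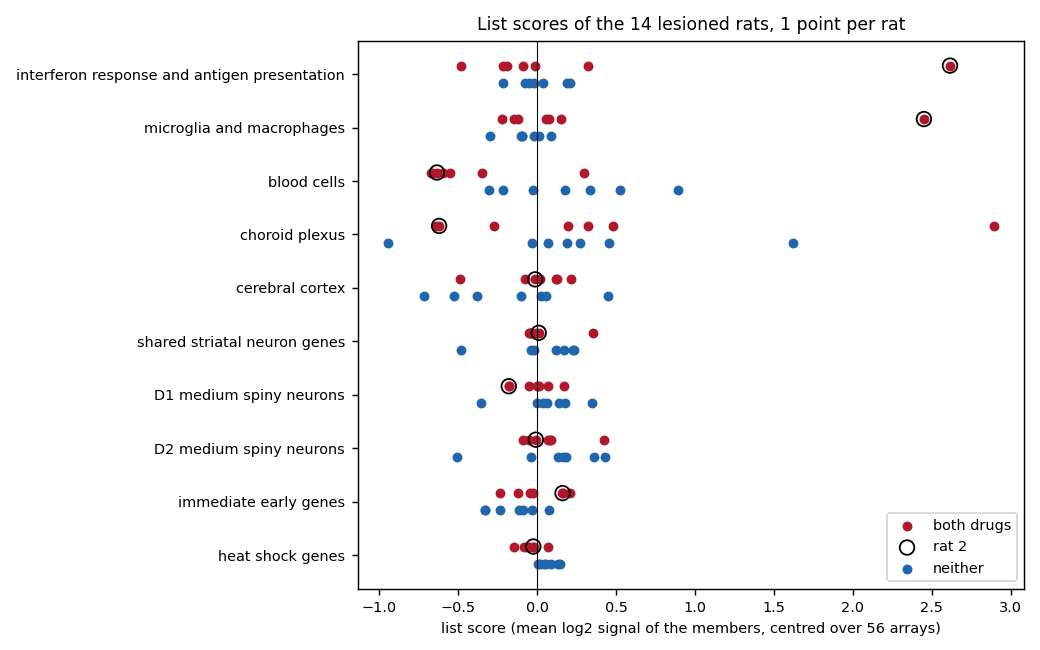
Score of 10 gene lists in each of the 14 lesioned rats, both drugs in red above and neither in blue below, where a score is the mean of the members' log2 signals, each centred on its mean over 56 arrays. Rat 2 (circled) lies at 2.61 for the interferon list and 2.45 for the microglia list, where the other 13 rats lie between -0.48 and 0.32.

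Blood was represented by a single gene. Of the 12 genes of the list, 8 had a probe set of that symbol alone, and of these only Hbb passed the filter. The list thus rests on Hbb, with log2 signals of 9.71 to 10.68, median 9.78, in rats given both drugs, against 10.07 to 11.28, median 10.56, in rats given neither. Rat 1 was far above the other 6 rats given both drugs, which lay at 9.71 to 10.03 and below every rat given neither. The difference was -0.65 ± 0.17 (adjusted p = 0.114), or -0.62 ± 0.17 without rat 2. Its part in the other results was not tested. With Hbb as a covariate, added after seeing the data, 223 of the 18462 probe sets were called. Hbb itself lay lower in rats given both drugs, so these calls are not read as drug effects.

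Markers of neighbouring tissue varied from rat to rat. The choroid plexus list (3 of 14 genes tested) had a score of 2.89 in rat 7, given both drugs, against -0.64 to 0.48 in the other 6, and 1.62 in rat 27, given neither, against -0.95 to 0.45 in the other 6. Cerebral cortex genes had 9 of 14 higher and a median of 0.10, with Neurod2, a transcription factor of cortical projection neurons, at 5.86 to 6.83, median 6.63, in rats given both drugs, against 5.20 to 6.86, median 5.71, in rats given neither (0.54 ± 0.24, adjusted p = 0.354). The summed linear signal of the cortex list was 9658 to 13083 in rats given both drugs and 8725 to 14952 in rats given neither, and the part of these tissues in the results was not tested. Oligodendrocyte genes had 3 of 13 higher and a median of -0.05, with Ugt8, an enzyme of myelin lipid synthesis, at -0.34 ± 0.12 (adjusted p = 0.271). Astrocyte genes had 5 of 13 higher and a median of -0.01, with Slc4a4, a bicarbonate carrier, at -0.19 ± 0.06 (adjusted p = 0.205). Endothelial and mural cell genes had 10 of 17 higher and a median of 0.01, with Acta2, smooth muscle actin, at 0.24 ± 0.09 (adjusted p = 0.286).

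Interneuron lists were short. All 3 cholinergic genes tested were lower in value, with a median of -0.11 and Chat, which makes acetylcholine, at -0.18 ± 0.16, and 3 of 4 GABA interneuron genes were higher, with a median of 0.06. Ependyma had 5 of 5 higher and a median of 0.10, leptomeninges 4 of 8 and a median of -0.02, and septum, thalamus and pallidum 5 of 8 and a median of 0.03, or -0.01 under quantile normalization. In the last of these, Prkcd, a protein kinase C of thalamic neurons, had 6.26 to 7.50, median 6.88, in rats given both drugs, against 6.27 to 6.56, median 6.37, in rats given neither (0.40 ± 0.15, adjusted p = 0.268).

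The probe sets on the 2 sides at an unadjusted p under 0.05 differed in signal level and in gene length, given as description. The 1321 higher ones had a median mean log2 signal of 6.65 and their genes a median length of 22.7 kb. The 975 lower ones had 8.12 and 37.7 kb, and all tested probe sets 7.11 and 25.6 kb. The RefSeq promoters of the higher, the lower and all genes tested had nearly the same median share of G and C, 60.8%, 61.2% and 60.8%. The groups' difference in 3' minus 5' signal stands beside these values, and its part in them was not tested.

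Sham rats given both drugs (numbers 29 to 35) and sham rats given neither (numbers 50 to 56) lie in different array sets, judged by sample number. Drug and array set cannot be told apart there, so no test was made and only levels are given. The lesioned rats lie in the same set as the sham rats given both drugs. Setd5 averaged 7.94 ± 0.09 in sham rats given both drugs and 7.92 ± 0.20 in sham rats given neither (SD, n = 7 each). Brd1 averaged 7.33 ± 0.14 in sham rats given both drugs and 7.46 ± 0.14 in sham rats given neither. 1371366_at averaged 8.56 ± 0.10 in sham rats given both drugs and 8.38 ± 0.12 in sham rats given neither. The lesioned rats given neither drug averaged 7.73 ± 0.10 for Setd5, below both sham groups, 7.48 ± 0.05 for Brd1 and 8.18 ± 0.08 for 1371366_at. Sham rats given neither differ from them in lesion and array set, and sham rats given both drugs differ in lesion and drugs. These levels therefore give no effect of the lesion.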

How the data were processed

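Per the labels' protocols, total RNA of the dorsal striatum (100 ng) was amplified and labelled (3' IVT Express), and each rat's sample was put on its own Affymetrix Rat230_2 array. The deposited values are log2 signals, made by the authors with MAS5 per the submitters' processing notes; its version and scaling target are not given in the sources used here. Unlogged, each array has a trimmed mean (2% off each end) of 150.042 to 150.046, so the authors had scaled the arrays to 1 level. Detection calls were not used. Precision is limited by the number of arrays. Values were used as deposited, with no pseudocount.

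Groups come from the labels. Group means (8) were estimated over all 56 arrays with limma 3.58.1 and its eBayes step, in R 4.3.3, and the main contrast was both drugs minus neither in lesioned rats (7 against 7). Probe sets other than controls with a mean log2 signal above 5 over the 14 arrays were tested (18462 of 31042), with 0.05 as the limit on the Benjamini-Hochberg adjusted p. All tests were two-sided. P-values rest on the spread within the 8 groups, pooled over all 56 arrays, sham groups included. With 1 array per rat, spread between rats and technical spread between arrays cannot be told apart. The main fit held no term besides the group means, so any technical step within a group is part of this spread. Of the tested probe sets 13524 carry 1 symbol (10107 genes), 309 several and 4629 none, from the platform annotation, and 99.7% of the 20832 symbols in the table were matched by gene number to a rat gene table. Promoters are from RefSeq, build GRCr8.

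Named genes follow 1 rule: up to 15 called genes in each direction, filled to 10 by smallest p, the 3 of smallest p for the departure from additivity, the 2 of smallest p of each list, and 10 dopamine system genes. The rats compared, the gene lists and the tests were chosen with earlier results of these data known. The fit was tested on simulated data. Alternatives were leaving out each rat, other filters, quantile normalization, 16 added to the unlogged signal, a trended robust prior, array weights, fits over fewer arrays, and covariates for RNA quality, choroid plexus, cortex and microglia. Covariates for beta-actin and GAPDH quality and for blood, and the 14-array fit without rat 2, were added after seeing the data.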

Additional observations from a re-analysis of the deposited data

Results flagged for a closer look

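Values far from the other rats of their group were found in 35 of 252 sets of 7 values examined (13.9%). The limit used is nominally passed by about 1 in 20 sets of 7 independent normal values. The sets here share genes, as Hbb and the blood list do, so the 35 are not read as an excess. Of these, 8 were in rat 2, given both drugs: scores of 2.61 for the interferon list and 2.45 for microglia, above the other 6 rats, and of -0.508 for ependyma, below them, and log2 signals of 7.53 for C1h19orf12, 8.85 for Psmb9, 10.80 for Aif1, 12.75 for Ctss and 8.09 for Ly6e, all above. In the other rats given both drugs, rat 1 was high for Hbb at 10.68 and so for the blood list at 0.299, and low for Far1 at 7.03. Rat 3 was high for Meis2 at 11.23, Drd2 at 10.22, D2 medium spiny neurons at 0.425, shared striatal neuron genes at 0.353 and dopamine receptors and their signalling at 0.17, and low for Vip at 5.20, GABA interneurons at -1.01 and cerebral cortex at -0.493. Rat 4 was high for Herpud1 at 8.38, rat 5 for Sst at 8.46, and rat 7 for Folr1 at 7.26 and choroid plexus at 2.89.

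Among rats given neither drug, rat 22 was low for Drd1 at 10.25, Adora2a at 9.41, Chat at 5.94, Slc35a1 at 6.46, shared striatal neuron genes at -0.484, dopamine receptors and their signalling at -0.177 and Ras-ERK genes at -0.0827. Rat 23 was low for Cops2 at 8.20 and Nr3c1 at 8.93, rat 24 for Gabrg1 at 6.30, and rat 25 for Grina at 8.99. Rat 28 was high for Slc4a4 at 10.49.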

How the results depend on the processing

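Whether the 3 probe sets passed the threshold depended on single rats, while their differences kept their side. Over the 29 alternatives the difference ran from 0.317 to 0.368 for Setd5, from -0.348 to -0.272 for Brd1 and from 0.297 to 0.382 for 1371366_at. Leaving out 1 of the 14 rats gave 0 to 6 called probe sets, with 0 in 7 of the 14 fits (without rat 1, 2, 3, 25, 26, 27 or 28), 1 without rat 5, 5 without rat 6, and 6 without rat 7 or rat 22. The count was 6 with a filter at a mean log2 signal above 7, 1 with the microglia score as a covariate, 223 with the blood marker as a covariate, and 0 with array weights, with a fit over the 28 lesioned or the 14 compared arrays, with a covariate for 3' minus 5' signal (3 control genes, or beta-actin and GAPDH), and with the 14 arrays less rat 2; the cause was not tested. With fewer samples the fits over 28 and 14 arrays also have fewer degrees of freedom. The count at an unadjusted p under 0.05 was 1337 with the filter above 7, 1199 with the beta-actin and GAPDH covariate and 3452 with the blood covariate, against 2296. For 1371366_at, L-dopa alone minus neither (0.34) lost its call in 6 of the fits leaving out 1 rat (range of all 14, 0.322 to 0.353), without a filter (0.339), under quantile normalization (0.336), over the 28 lesioned arrays (0.339) and with covariates for 3' minus 5' signal (0.337), choroid plexus (0.315), cortex (0.343), beta-actin and GAPDH (0.273) and blood (0.334). Its step from L-dopa alone to both drugs (0.01) turned negative in 2 of these fits (range -0.041 to 0.0427), with array weights (-0.0282) and with the microglia covariate (-0.0118). The difference in 3' minus 5' signal missed the threshold in 8 of them (range 0.0643 to 0.0932, exact permutation p up to 0.0629). Of 90 named genes, 53 were run under all 29 alternatives and 37 under 28, since the filter above 7 leaves those out; 79 kept their side throughout and 11, none called, did not. With the beta-actin and GAPDH covariate Drd1 gave 0.081, Gpr6 0.0998 and Lnc215 -0.0679. With the blood covariate Lnc215 gave -0.027, Drd2 -0.0946, Penk -0.0669 and Aqp1 0.129. Quantile normalization gave -0.0216 for Penk and 0.0178 for Ppp1r1b, the cortex covariate 0.0727 for Ppp1r1b and -0.127 for Vip, the microglia covariate -0.0164 for Psmb9, and the choroid plexus covariate -0.000916 for Lnc215. Leaving out 1 rat gave ranges of -0.0332 to 0.0718 for Lnc215, -0.0225 to 0.0674 for Penk, -0.107 to 0.0382 for Ppp1r1b, -0.234 to 0.00368 for Aqp1 (positive without rat 3), -0.0409 to 0.142 for Drd2 (negative without rat 22), -0.102 to 0.376 for Folr1 and -0.0342 to 0.306 for Igf2 (both negative without rat 7), and -0.00111 to 0.552 for Psmb9 (negative without rat 2). Quantile normalization moved the median of all probe sets to -0.00505, against 0.01. No paired analysis was possible because sample numbers are not shared between groups.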
